A study of Rattus norvegicus with 13 samples.

Results

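The 286 domains described here are 100 kb stretches of the rat autosomes. In them the signal of methylated DNA, as a share of each library, was at least 2-fold higher in morulae than in sperm. They were found by joining counts of sequenced fragments over windows of 1 kb into bins of 100 windows on chromosomes 1 to 20 of the build Rnor_6.0. Levels are given as CPM, each count being scaled to a library total of 1000000. Of 26179 full bins, 26150 had a summed sperm level of at least 1 CPM and were eligible, and the 286 domain bins are 1.09% of these, or 28.6 Mb of 2615 Mb. The members were chosen by the ratio of mean morula to mean sperm CPM in all 13 libraries, so every value of morulae against sperm below is a description and was not tested.

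Methylated DNA immunoprecipitation (MeDIP) pulls down DNA fragments with an antibody against 5-methylcytosine, and the recovered fragments are sequenced. Mammalian sperm DNA is methylated over most of the genome. After fertilization, methylation is removed from much of the paternal and maternal genome during cleavage, and it is restored around implantation. The morula lies in the low phase of this cycle. Some sequences, among them imprinted control regions and certain retrotransposon families, are known to keep methylation through it. MeDIP counts are relative to the library total, and they rise with CpG density and with the number of copies of a sequence, so methylation level and the amount of DNA of a sequence cannot be told apart in these values. A higher value in morulae than in sperm is thus a larger share of the library and need not be a higher level of methylation.

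The libraries form 4 groups, all of outbred Hsd:Sprague Dawley SD rats. Gestating F0 females were injected intraperitoneally with DDT, an organochlorine insecticide, or with the vehicle DMSO, from embryonic day 8 to day 14, and later generations received nothing. Sperm came from the cauda epididymis of F3 males of each lineage, with animals kept to 1 year of age, as 3 control and 4 DDT libraries. Morulae were made by injecting F3 sperm of each lineage into eggs of superovulated donor females (intracytoplasmic sperm injection), as 3 control and 3 DDT libraries. The maternal genome of all morulae therefore came from donors outside both lineages, and each morula library was a pool of embryos. The labels do not say that replicates came from separate animals, so the spread behind each p-value is that between these libraries and may be technical. Labels of tissue could not be checked, since MeDIP counts hold no expression markers.

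Total counts ranged from 37842198 to 65864303 in morulae and from 30386626 to 193750804 in sperm. The shallowest sperm libraries, control replicate 3 and DDT replicate 4, stood apart from the other 5. Over the eligible bins their log levels correlated at r = 0.986 with each other and at 0.855 to 0.907 with the other sperm libraries, which correlated among themselves at 0.972 to 0.994. Values that rest on these libraries are given with and without them.

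The median domain bin had 66.3 CPM in morulae and 26.1 CPM in sperm, whereas the median eligible bin had 33.0 and 36.1 CPM. In the plot of morula against sperm level the domain bins form the upper rim of the cloud over the whole range of levels. Of the 286 bins, 156 lay in the top 5% of eligible bins by morula level and 103 in the bottom 5% by sperm level. Others lay at the opposite ends, with 59 in the bottom 5% by morula level and 43 in the top 5% by sperm level. The opposite edge was thin, since 27 eligible bins had a ratio of 0.5 or less. On the X chromosome, which the choice of members left out, 20 of 1595 bins reached 2-fold.

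**Figure D1:**
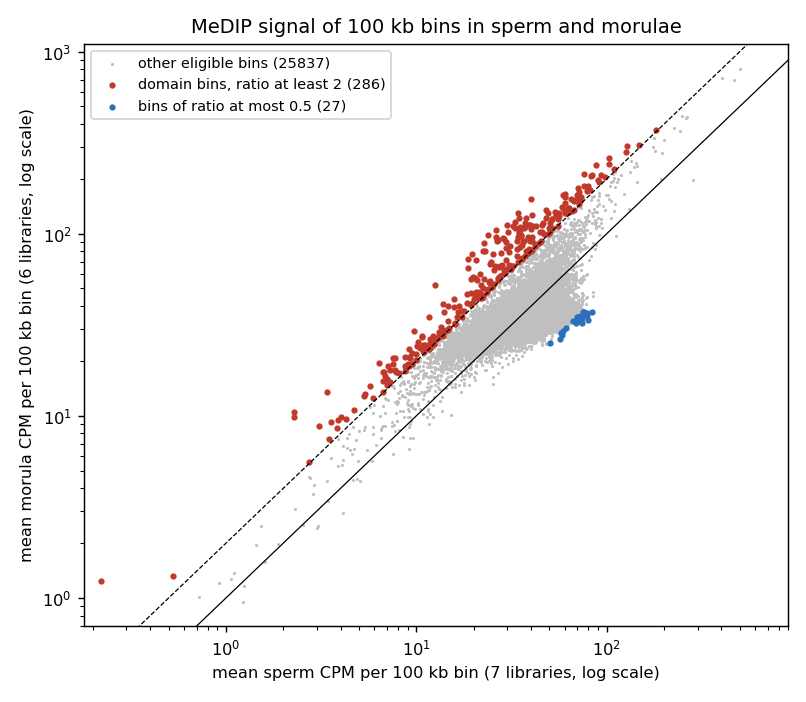
Mean CPM of each eligible 100 kb bin in 7 sperm libraries (horizontal, log scale) and 6 morula libraries (vertical, log scale), with the 286 domain bins in red and the 27 bins of ratio 0.5 or less in blue. The solid line marks equal levels and the dashed line a ratio of 2, and domain bins lie along the upper edge at low and high levels alike.

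The median ratio of the domains was 2.30, with a range from 2.00 to 5.64, and the median over all eligible bins was 1.01. There were 38 bins at 3-fold or more and 5 at 4-fold or more. Just inside the threshold lay chr9:52500001-52600000 with 27.6 CPM in morulae and 13.8 CPM in sperm, followed by chr19:100001-200000 and chr8:20800001-20900000, all at a ratio of 2.00. Just outside lay chr12:34900001-35000000 with 61.5 CPM in morulae and 30.7 CPM in sperm, chr15:107100001-107200000 and chr17:44400001-44500000, which also round to 2.00. The threshold thus cuts through a continuous distribution.

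The members fell into bins rich and bins poor in signal. In 201 domain bins the morula level was above the eligible median, with medians of 91.8 CPM in morulae and 35.2 CPM in sperm. Of these, 107 were below the eligible median in sperm and 94 above it. In the other 85 bins the medians were 20.7 CPM in morulae and 9.19 CPM in sperm. The median ratio was 2.37 in the first set and 2.23 in the second. Both lie near the threshold of 2, so this likeness between bins of very different level follows largely from the rule.

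The domains held 2.14%, 2.10% and 2.25% of all counts in control morulae 1 to 3 and 2.39%, 2.27% and 2.23% in DDT morulae 1 to 3. They held 0.916%, 0.835% and 0.983% in control sperm 1 to 3 and 0.893%, 0.904%, 0.932% and 0.982% in DDT sperm 1 to 4. Morula and sperm libraries did not overlap, and control and DDT libraries overlapped within each tissue. As group means these were 2.16% ± 0.0749 (SD, n = 3) in control morulae, 2.30% ± 0.0817 (SD, n = 3) in DDT morulae, 0.911% ± 0.0746 (SD, n = 3) in control sperm and 0.927% ± 0.0396 (SD, n = 4) in DDT sperm.

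**Figure D2:**
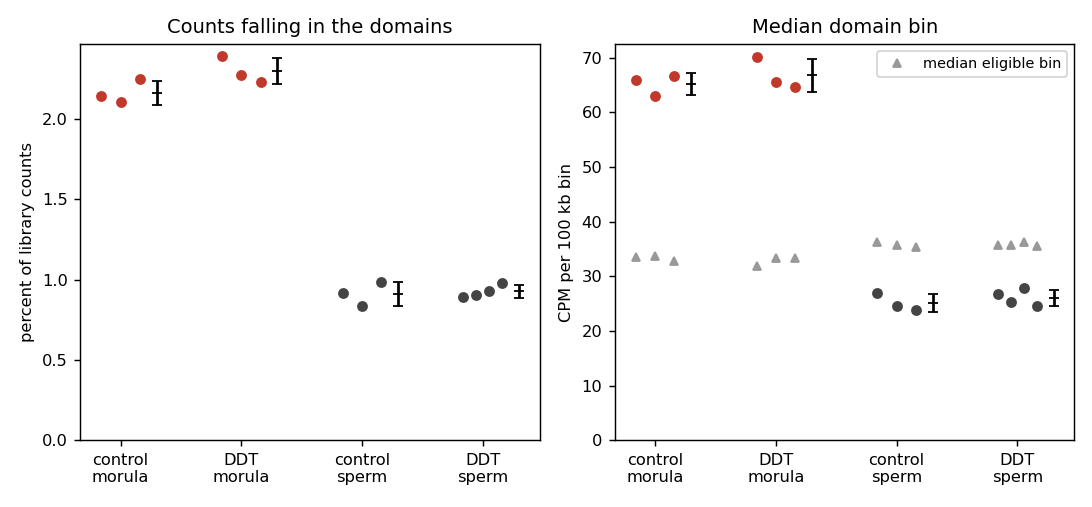
Left, percent of each library's counts that fall in the 286 domain bins. Right, median CPM over domain bins (circles) and over eligible bins (grey triangles). Each point is 1 library and the black bars give group mean and SD. Morula libraries hold 2.10% to 2.39% and sperm libraries 0.835% to 0.983%.

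All 6 morula libraries exceeded all 7 sperm libraries in 284 of the 286 domain bins. Over all eligible bins this held in 30.5%, and for the domains it follows largely from the rule. The other members, which the lack of separation picked out after their values were seen, were chr1:180700001-180800000 and chr13:33500001-33600000. In the chromosome 1 bin sperm levels were 103, 80.0 and 287 CPM in control replicates 1 to 3 and 106, 109, 104 and 250 CPM in DDT replicates 1 to 4. Morula levels there were 250, 258 and 306 CPM in controls and 354, 335 and 333 CPM in DDT. The highest sperm library thus exceeded the lowest morula library. In the chromosome 13 bin sperm levels were 135, 105 and 339 CPM in controls and 131, 135, 129 and 296 CPM in DDT. Morula levels were 305, 317 and 375 CPM in controls and 433, 406 and 401 CPM in DDT. Both bins were therefore high in the 2 sperm libraries that stand apart and low in the other 5, and the ratios of 2.06 rose to 3.05 and 2.94 without those libraries. Of their 100 windows, 56 and 57 held no count in any library.

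The ratio was shared by both lineages. Of the 286 bins, 260 reached 2-fold among control libraries alone, 269 among DDT libraries alone and 243 in both. This follows largely from the rule, which used the libraries of both lineages. When the choice was made on control libraries alone it gave 291 bins, of which 244 (83.8%) were at least 2-fold in the DDT libraries, against 1.14% of eligible bins. When it was made on DDT libraries it gave 298 bins, of which 244 (81.9%) were at least 2-fold in control libraries, against 1.11%. Almost all of the rest came close, with 290 of 291 and 295 of 298 reaching 1.5-fold in the lineage not used. These counts use libraries outside the choice, but the pattern was known from earlier results of the same data. Leaving out the 2 sperm libraries that stand apart left 268 of the 286 at 2-fold or more.

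Domain bins lay together. Adjacent members merged into 148 runs, of which 95 were a single bin, 21 held 2 bins and 32 held 3 or more. The 32 longer runs contained 149 bins, or 52.1% of the members. When members that started up to 500 kb apart were joined, 104 clusters remained, and 6 of these, with 10 or more members each, contained 83 bins (29.0%). The single bins had a median ratio of 2.14 and a median of 44.5 CPM in morulae. Bins in runs of 3 or more had a median ratio of 2.50 and a median of 93.0 CPM in morulae.

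Their spread over chromosomes was uneven. Chromosome 8 had 36 members (2.70% of its eligible bins), chromosome 1 had 63 (2.23%) and chromosome 6 had 26 (1.76%). Chromosomes 11 and 18 had 1 each, and chromosome 20 had none of 561 eligible bins. Within 2 Mb of a chromosome end lay 14 members (4.90%), compared with 797 eligible bins (3.05%).

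The longest run was chr1:179000001-180200000, with 12 bins. Its summed level was 1416, 1367 and 1401 CPM in control morulae and 1468, 1467 and 1426 CPM in DDT morulae. It was 578, 519 and 551 CPM in control sperm and 574, 559, 586 and 548 CPM in DDT sperm. The tissues were far apart in every library, at a ratio of 2.55 for the whole run and 2.01 to 3.99 for single bins. The run belonged to the largest cluster, chr1:179000001-181400000, in which 20 of 24 bins were members and the lowest ratio of the other 4 was 1.80.

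**Figure D3:**
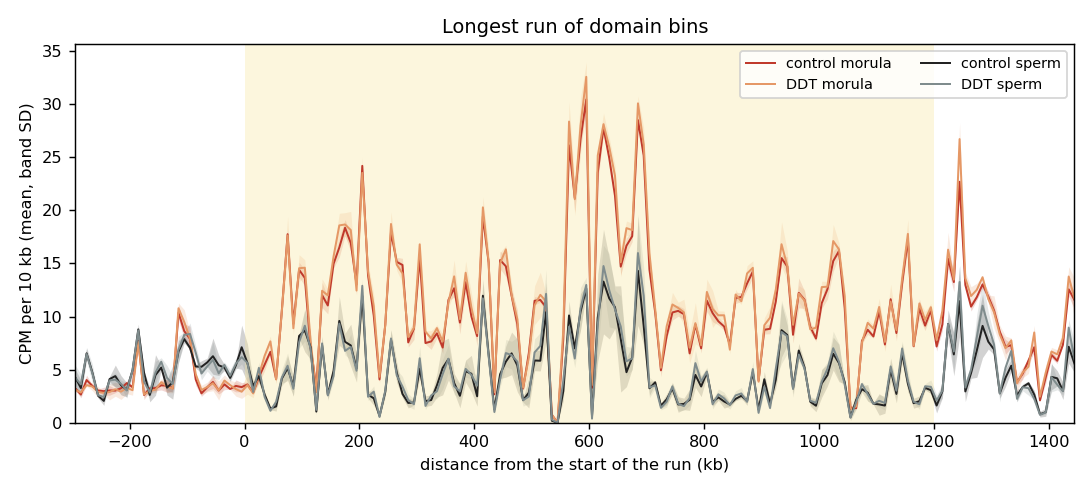
CPM per 10 kb along the longest run (shaded) and its flanks, by distance in kb from the start of the run. Lines are group means and bands SD (3 control morula, 3 DDT morula, 3 control sperm and 4 DDT sperm libraries). Morula lines lie above sperm lines along most of the run, and before the run sperm lines lie at or above morula lines at many steps. Within each tissue the lines of the 2 lineages lie close together, with DDT morulae above control morulae at many steps of the run.

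Within this run the excess was broad and its size changed from step to step. Between 200 and 210 kb from its start, control morulae had 24.2 ± 0.16 CPM per 10 kb (SD, n = 3) and control sperm 11.9 ± 1.21 (SD, n = 3). Between 750 and 760 kb the levels were 10.5 ± 0.51 and 1.72 ± 0.74 CPM in the same groups (SD, n = 3 each). Before the run sperm was higher at many steps, as in the 10 kb that start 80 kb before it, with 5.27 ± 0.57 CPM in control sperm and 2.77 ± 0.29 CPM in control morulae (SD, n = 3 each). In the first 10 kb of the run control sperm was also higher, at 5.63 ± 1.81 CPM against 3.61 ± 0.23 in control morulae (SD, n = 3 each). The start of this run thus follows the grid of bins and does not mark the place where the signal changes. The window of highest morula level, chr1:179688001-179689000, did not separate the tissues, with 6.52 CPM in morulae and 6.45 CPM in sperm on average. Sperm there ranged from 3.37 to 5.52 CPM in 5 libraries and reached 11.7 and 10.5 CPM in control replicate 3 and DDT replicate 4. The windows that ranked 2 and 3 did separate the tissues. At chr1:179583001-179584000 morulae had 4.60 to 5.59 CPM and sperm 2.14 to 4.25 CPM. At chr1:179595001-179596000 morulae had 4.44 to 5.08 CPM and sperm 1.68 to 2.18 CPM.

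The next longest run was chr6:16200001-17100000, with 9 bins at a ratio of 3.06. Its summed level was 780, 745 and 786 CPM in control morulae and 830, 802 and 764 CPM in DDT morulae. Sperm had 269, 244 and 240 CPM in controls and 264, 254, 283 and 239 CPM in DDT. The lowest morula library was thus well above the highest sperm library.

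The 3 runs of 7 bins were chr9:21400001-22100000 at a ratio of 3.08, chr8:10200001-10900000 at 3.08 and chr6:139200001-139900000 at 2.48. The run on chromosome 9 had 619 to 678 CPM in morulae and 200 to 226 CPM in sperm. The run on chromosome 8 had 688 to 762 CPM in morulae and 220 to 261 CPM in sperm. The run on chromosome 6 was lower, at 253 to 291 CPM and 91.6 to 137 CPM. It stands 100 kb after a run of 6 bins, chr6:138500001-139100000, with a ratio of 2.42. The other runs of 6 bins were chr1:117400001-118000000 at 2.23 and chr8:40800001-41400000 at 2.22. In all 8 runs the lowest morula library lay above the highest sperm library.

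The largest ratio, 5.64 at chr7:22100001-22200000, rested on few counts. Of its 100 windows 97 were empty in every library, and the bin held 43 to 73 counts in morula libraries and 8 to 37 in sperm libraries. The levels were 1.06, 1.24 and 1.41 CPM in control morulae and 1.48, 1.05 and 1.22 CPM in DDT morulae, and 0.103 to 0.331 CPM in sperm. Most of the morula signal came from 1 window, chr7:22102001-22103000, with 0.927 CPM in morulae and 0.102 CPM in sperm. The window before it held 0.314 CPM in morulae and 0.118 CPM in sperm.

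The bin chr2:115200001-115300000 had a ratio of 4.62 and no empty window. It had 10.4, 9.82 and 10.6 CPM in control morulae and 11.6, 9.78 and 10.8 CPM in DDT morulae. Sperm had 2.18, 2.06 and 1.74 CPM in controls and 2.25, 2.30, 2.92 and 2.46 CPM in DDT. Its morula level was far below the eligible median of 33.0 CPM, and its sperm level was further still below the eligible median of 36.1 CPM. The bin was thus poor in signal in both tissues, and more so in sperm.

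The bin chr8:42800001-42900000, at 4.37, was alike, with 9.90 CPM in morulae and 2.26 CPM in sperm. Other bins of high ratio were rich in morula signal. The bin chr9:21700001-21800000 had 52.4 CPM in morulae and 12.4 CPM in sperm, at 4.21. The bin chr6:16800001-16900000 had 98.8 and 23.9 CPM, at 4.14, and chr1:179800001-179900000 had 104 and 26.2 CPM, at 3.99. They lie inside the long runs above. The last of the 8 largest were chr1:118600001-118700000 at 3.96, with 13.5 and 3.41 CPM, and chr6:16400001-16500000 at 3.95, with 77.1 and 19.5 CPM.

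The excess did not stop at the edge of a run. Among 294 eligible bins next to a member the median ratio was 1.61, and 61.9% were at 1.5 or more, compared with 5.91% of all eligible bins. The median was 1.43 at 2 bins away, 1.32 at 5 bins, 1.22 at 10 bins and 1.16 at 20 bins. A part of this fall follows from the threshold, which keeps neighbours below 2. At 10 kb steps across the 106 edges of runs of 2 or more bins, the ratio of summed levels was 2.57 at 90 to 100 kb inside, 2.10 in the last 10 kb inside and 1.65 in the first 10 kb outside. It was 1.33 at 190 to 200 kb outside, over the 82 edges with no other member at that distance. From the last 10 kb inside to the first 10 kb outside, the mean morula level was 6.70 CPM per 10 kb on both sides, and the mean sperm level was 3.19 inside and 4.05 outside. The medians over edges rose in both tissues, from 3.63 to 4.37 CPM in morulae and from 1.91 to 2.53 CPM in sperm.

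**Figure D4:**
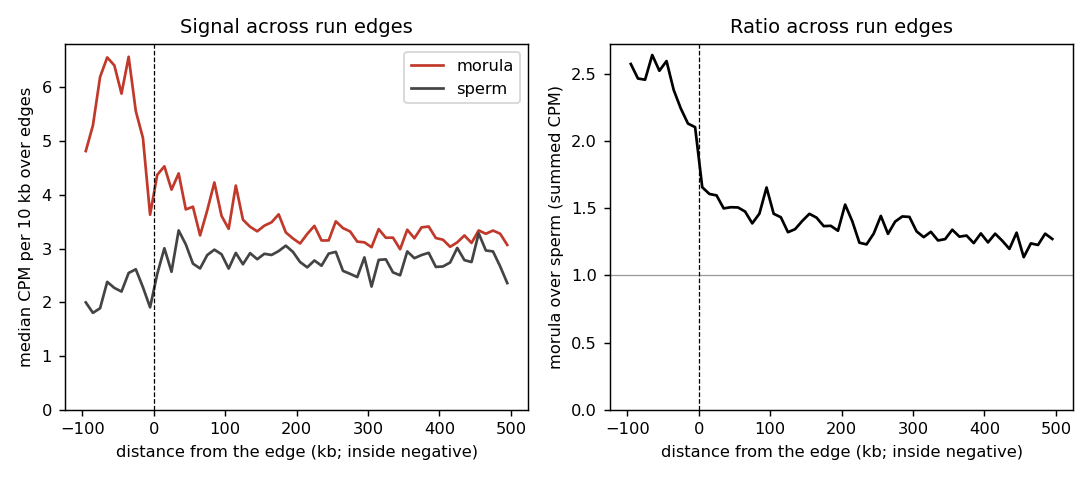
Left, median CPM per 10 kb over the edges of runs of 2 or more bins in morulae and sperm. Right, summed morula CPM over summed sperm CPM. The horizontal axis is distance in kb from the edge, with negative values inside the run. The ratio falls from 2.10 to 1.65 across the edge and stays above 1 over the flank.

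Inside a domain bin the excess was spread over its windows. Among windows with at least 65 counts over the 13 libraries, the median domain bin had 95% of windows higher in morulae and 69.3% at 2-fold or more, compared with 58.9% and 23% in the median eligible bin. For the domains these shares follow largely from the rule. All morula libraries exceeded all sperm libraries in 13608 of 21341 such windows of the domains, and in 13.9% of such windows over all eligible bins. Removing the highest window left 7 of 286 bins below 2-fold, and removing the 10 highest left 16. The 10 highest windows held 25.2% of the morula signal and 38.9% of the sperm signal in the median domain bin, compared with 22.9% and 31.0% in the median eligible bin. Morula signal was thus more evenly spread over a domain than sperm signal.

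Among windows with at least 65 counts over the 13 libraries, those of low sperm level carried the largest ratios. A window of low sperm level passes this filter more readily when its morula count is high. The order of the ratios may thus follow in part from the filter, which was not tested. Windows were put into 3 classes of similar number by their level in control sperm and read in the DDT libraries, which did not form the classes. In the lowest class of the domains' windows DDT morulae had 0.591 ± 0.0212 CPM per window (SD, n = 3) and DDT sperm 0.111 ± 0.00948 (SD, n = 4), at a ratio of 5.30. The ratio was 3.08 in the middle class. In the highest class the levels were 1.71 ± 0.0623 (SD, n = 3) and 0.901 ± 0.0706 (SD, n = 4), at 1.90. Over all eligible bins the ratios were 2.07, 1.06 and 0.773, so the order was shared. The domains lay higher at each step, which follows largely from the rule, since it used the DDT libraries too. The profile of windows within a bin was alike in both tissues, with a median r of log levels of 0.704 between morula and sperm means in 280 domain bins and 0.657 in eligible bins. This r is across windows that share a library and a local base composition.

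Many domain bins held windows without any count. The median domain bin had 11 such windows of 100 and the median eligible bin had 0. There were 25 or more in 75 members (26.2%), compared with 727 eligible bins (2.78%). None were empty in 37 members (12.9%), compared with 13615 eligible bins (52.1%). Gene and sequence content of the domains was not analysed here, as no genome or annotation of Rnor_6.0 was used.

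The study's own question was whether the DDT lineage differed from the control lineage in F3 sperm and in the embryos made with it. That contrast was not part of the choice of domains and was tested with edgeR's quasi-likelihood test on the counts of 27780 bins, adjusted over all of them by the Benjamini-Hochberg method.

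In morulae no domain bin passed at an adjusted p of 0.05, and 2 of 27780 bins did (0.0072%). The domain bins nevertheless leaned 1 way. The log2 difference of DDT over control was above 0 in 258 of 286 domain bins, with a median of 0.064, and in 51.9% of all eligible bins, with a median of 0.002. At an unadjusted p under 0.05 there were 39 domain bins (13.6%), all higher in DDT, compared with 2.79% of all bins in either direction and 1.26% higher. All 3 DDT morula libraries lay above all 3 controls in 51 domain bins (17.8%), compared with 3.01% of eligible bins, and all below in 1, compared with 5.48%. A median log2 difference of 0.064 is small beside the ratio that defines the domains.

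Other bins of high morula level leaned the same way, and the lineages also differed in library depth. Among 1152 other bins in the top 5% of morula level, 93.7% were higher in DDT, with a median log2 difference of 0.049, and 2.60% had an unadjusted p under 0.05. All DDT morula libraries, at 37842198 to 40787673 counts, were shallower than all control ones, at 48923904 to 65864303. Within the control group, the shallowest library (replicate 3) was above the deepest (replicate 1) in 196 of 286 domain bins, with a median log2 difference of 0.038, compared with 44.1% and -0.012 over all eligible bins. Within the DDT group, the shallowest library (replicate 1) was above the deepest (replicate 2) in 220, with a median of 0.084, compared with 40.2% and -0.031. Among the 1152 other bins of high morula level these shares were 88.1% and 91.1%. The share of counts in the domains did not follow depth library by library, since DDT replicate 3 was shallower than DDT replicate 2 and control replicate 3 but held a smaller share. Without DDT replicate 1 the median difference between lineages fell to 0.031, with 197 bins higher, and 35 bins had an unadjusted p under 0.05, of which 31 were higher. The median was 0.046 to 0.092 when any other morula library was left out. The unadjusted count was 14 without control replicate 1, 6 without control replicate 2 and 50 without control replicate 3, and 41 without DDT replicate 2 and 57 without DDT replicate 3. It was 21 with replicate number as a block. The part of depth in this lean was not tested, and as group differences lineage and depth cannot be told apart in these morula libraries.

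**Figure D5:**
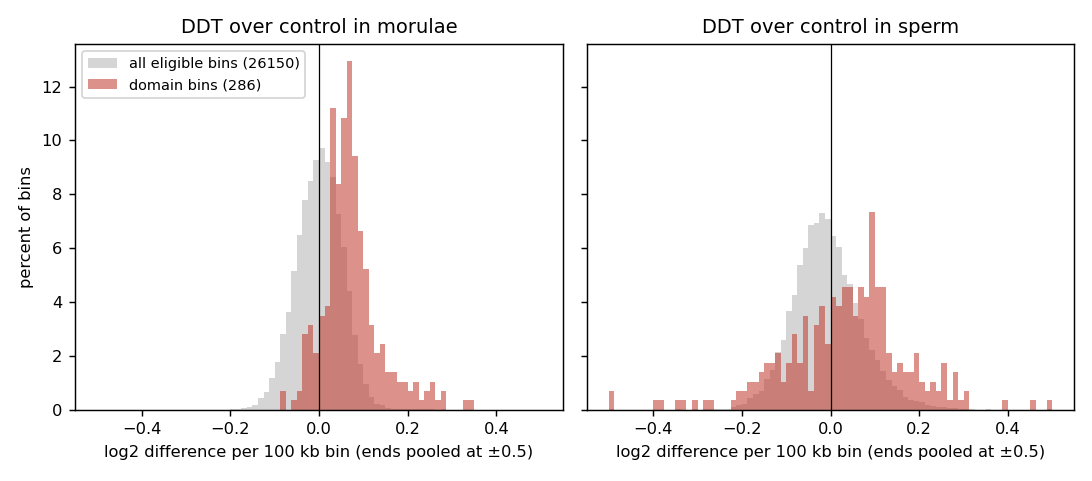
Percent of bins by log2 difference of DDT over control (edgeR fit) in morulae, left, and in sperm, right, for the 286 domain bins in red and all 26150 eligible bins in grey. In morulae the domain bins are shifted to a median of 0.064 beside 0.002, and in sperm to 0.042 beside -0.013 with a wider spread.

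The domain bin of smallest p in morulae was chr14:47900001-48000000. Its levels were 76.1, 75.5 and 87.0 CPM in control morulae and 96.6, 90.5 and 87.9 CPM in DDT morulae. The groups did not overlap, but the highest control was close to the lowest DDT library. The log2 difference was 0.22 ± 0.061 (SE), with an adjusted p of 1.00 by edgeR's quasi-likelihood test. The next were chr13:33600001-33700000 at 0.26 ± 0.073 and chr8:42600001-42700000 at 0.22 ± 0.067, also with adjusted p of 1.00 by edgeR. No member was lower at an unadjusted p under 0.05. The 3 of smallest p among those below 0 were chr1:118900001-119000000, chr6:139500001-139600000 and chr8:42900001-43000000, at -0.08, -0.05 and -0.08.

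DESeq2, run as an alternative, called 18 bins in morulae (0.0648%), of which 10 were domain bins, all higher in DDT. They lay in 3 places. Within the cluster of the longest run on chromosome 1 were 5, with chr1:180700001-180800000 first at a log2 difference of 0.34 and an adjusted p of 0.00113 by DESeq2. On chromosome 13 there were 4 between 33400001 and 33800000, led by chr13:33500001-33600000 at 0.32 with an adjusted p of 0.00474 by DESeq2. The last was chr4:146500001-146600000 at 0.22 with an adjusted p of 0.0306 by DESeq2. The 2 leading bins are the ones described above as high in the sperm libraries standing apart. The other called bins on chromosomes 1 and 13 were also highest in those libraries. At chr1:180900001-181000000 these had 208 and 183 CPM, and the other sperm libraries had 85.9 to 113 CPM. At chr4:146500001-146600000 they were close to the rest, with 84.1 and 86.6 CPM beside 72.0 to 83.9 CPM. In both leading bins, control morula levels also ran against depth, the shallowest control library being the highest and the deepest the lowest. Among DDT morulae the shallowest library was the highest as well, but the lowest was replicate 3 and not the deepest, replicate 2. The part of depth in these calls was not tested.

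In sperm no domain bin passed, and no bin of 27780 did (0%). An unadjusted p under 0.05 was found in 20 domain bins (6.99%), 16 of them higher in DDT, compared with 3.34% of all bins, or 928, and 2.21% higher. The median log2 difference was 0.042 over the domain bins and -0.013 over eligible bins, and 186 of 286 were above 0, compared with 42.7% of eligible bins. The median over the domain bins was 0.020 without DDT replicate 3 and 0.021 without control replicate 2. All 4 DDT libraries lay above all 3 controls in 15 domain bins (5.24%) against 3% of eligible bins, and below in 1 against 2.28%. DESeq2 called 179 bins (0.644%), of which 3 were domain bins.

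These counts changed with the 2 sperm libraries that stand apart. Without them edgeR called 4175 bins in sperm (15%) and 28 domain bins (9.79%), 20 higher and 8 lower in DDT. Of all bins 8.11% were called higher and 6.92% lower, so the share called among the domains was below that of all bins. With 2 control libraries left, this result leans on a small number of samples, and DESeq2 on the same libraries called 6791 bins (24.4%), with 45 among the domains.

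Several domain bins differed between single sperm libraries by far more than between morula libraries. At chr16:64900001-65000000 sperm had 70.0, 65.8 and 37.9 CPM in control replicates 1 to 3 and 35.1, 35.9, 34.0 and 41.6 CPM in DDT replicates 1 to 4. Control replicates 1 and 2 were high and replicate 3 lay within the DDT range. Morulae there had 115, 93.0 and 96.2 CPM in controls and 99.5, 102 and 103 CPM in DDT, which overlap. The sperm difference was -0.67 ± 0.19 (SE) on the log2 scale with an adjusted p of 1.00 by edgeR, and -0.95 with an adjusted p of 2.81e-07 by edgeR without the libraries that stand apart.

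At chr8:4300001-4400000 it was 1 DDT library that differed. Control sperm had 17.4 to 18.4 CPM, and DDT sperm had 17.6, 8.15, 8.43 and 9.89 CPM. DDT replicate 1 was at the level of the controls and the other 3 lay well below it. Morulae had 29.0, 29.7 and 27.7 CPM in controls and 27.2, 30.5 and 29.9 CPM in DDT. The sperm difference of -0.70 ± 0.26 (SE) had an adjusted p of 1.00 by edgeR.

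The bin of smallest p in sperm was chr8:44700001-44800000, with 16.1, 14.3 and 13.6 CPM in controls and 20.9, 21.2, 21.6 and 16.7 CPM in DDT. All DDT libraries were above all controls, by 0.45 ± 0.10 (SE) on the log2 scale, with an adjusted p of 1.00 by edgeR's quasi-likelihood test, 0.00867 by DESeq2, and 0.000518 by edgeR without the libraries that stand apart. At chr17:44200001-44300000 the direction was opposite. Controls had 35.7, 28.6 and 32.2 CPM and DDT libraries 22.2, 23.1, 26.4 and 27.3 CPM, and the groups did not overlap. The difference was -0.38 ± 0.096 (SE), with an adjusted p of 1.00 by edgeR and 0.0310 by DESeq2. The other bins of smallest p were chr6:17000001-17100000 at 0.20, in the run on chromosome 6, and chr2:35400001-35500000 at 0.26.

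The test of the difference between both lineage effects, that in morulae minus that in sperm, used all 13 libraries. It called no bin of 27780 (0%), no domain bin, and at an unadjusted p under 0.05 it found 684 bins (2.46%), of which 7 were members (2.45% of the domains). DESeq2 called 11 bins (0.0396%) and no member. The members of smallest p were chr17:44200001-44300000 at 0.42, chr16:64900001-65000000 at 0.69 and chr15:49900001-50000000 at 0.33 on the positive side. On the negative side they were chr2:35200001-35300000 at -0.29, chr8:44700001-44800000 at -0.32 and chr14:100001-200000 at -0.25. All had an adjusted p of 1.00 by edgeR. Without the sperm libraries that stand apart 240 bins passed (0.864%, and 0.212% with a positive value), 5 of them members, all with a positive value. They were the 3 positive ones named here, chr14:101900001-102000000 at 0.66 and chr7:1900001-2000000 at 0.38. Without DDT sperm replicate 1 a single bin passed, the member chr8:4300001-4400000, at 1.07 with an adjusted p of 0.00466 by edgeR.

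At the level of single windows of 1 kb, 22262 windows of the domains were tested in morulae and none passed, against 1 of 2568322 in all (3.89e-05%). At an unadjusted p under 0.05 there were 1048 domain windows (4.71%), 788 of them higher in DDT, beside 4.9% of all windows, and 2.48% higher. In sperm none of 19736 domain windows passed and none in all of 2454365 (0%), with 1268 domain windows (6.42%) at an unadjusted p under 0.05 beside 5.92% of all, or 145414. Without the sperm libraries that stand apart 261890 windows passed (10.4%), of which 1849 were among 20539 tested windows of the domains. In the authors' deposited table for morulae, 2 of 2161644 windows with a p-value had an adjusted p under 0.05 (9.25e-05%), none in the domains, and 4.57% had an unadjusted p under 0.05, with 997 (5.14%) in the domains. In the authors' deposited table for sperm it was 28 of 2182744 (0.00128%), 1 in the domains, and 3.79% unadjusted, with 728 (4.42%) in the domains.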

How the data were processed

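MeDIP-seq counts of 13 libraries were taken from 2 of the 4 tables that the authors deposited. The authors deposited raw read counts per window of 1000 bp, made, per the submitters' processing notes, on the build Rnor_6.0 with Trimmomatic, FastQC, SAMtools, Bowtie2 and edgeR, for which no versions are given. Whether duplicate reads were removed is not given in the sources used here. The tables also hold, per the file headers, the authors' edgeR log2 fold change, p-value and adjusted p-value per window, of which the p-values are cited as deposited. The 13 RPKM columns were not used.

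CPM used the column sum of each library. Bins of 100 windows were summed, and the domains are bins at a mean morula over mean sperm CPM of at least 2. DDT was compared with control in edgeR 4.0.16 (R 4.3.3, quasi-likelihood test with legacy = FALSE, TMM scaling, two-sided, Benjamini-Hochberg, total of at least 5 counts per library) on each tissue alone, and on all groups for the difference between tissues. DESeq2 1.42.0 and the other alternatives are described at the end. Counts were also simulated, with a spread between libraries that was set and not estimated from the data (dispersion 0.005 for bins and 0.05 for windows). In 27780 simulated bins, the morula test recovered 100 of 100 changes of 2-fold, with 12 false calls. Smaller changes were not simulated, so the power of the bin test for differences of the size found here is not known. In 2568322 simulated windows of 1 kb it recovered 4 of 100 changes of 2-fold and 71 of 100 of 4-fold. At this setting window tests have little power for small differences.

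Regions named are the 8 longest runs, the 8 bins of largest ratio, the 3 bins nearest to each side of the threshold, the 3 members of smallest p per direction and test, and the 3 windows of highest morula level in the longest run and in the bin of largest ratio. Members, rules and lists were chosen with earlier results of these data known.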

Additional observations from a re-analysis of the deposited data

Results flagged for a closer look

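In the DDT sperm group 1 of 4 libraries lay far from the others in 5 of the 34 tests made over the domains and named bins, and it was replicate 4 each time. Chance alone gives about 1 in 20 such results per test, but no comparison with that rate is made here, since the bins on chromosomes 1 and 13 at 180700001 and 33500001 were named because sperm libraries were high there, and the bin at 33600001 is next to one of them. Replicate 4 is one of the 2 shallow sperm libraries that stand apart from the rest.

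At chr1:180700001-180800000 replicate 4 had 250.0 CPM and the others 103.7 to 108.8 CPM. At chr13:33500001-33600000 it had 295.9 CPM beside 129.2 to 134.5 CPM, and in the next bin, chr13:33600001-33700000, 69.1 CPM beside 38.0 to 40.1 CPM. At chr14:47900001-48000000 it had 58.0 CPM beside 34.1 to 35.6 CPM. At chr8:44700001-44800000 it was low, with 16.7 CPM beside 20.9 to 21.6 CPM. Control sperm replicate 3 was the highest control library in the first 4 of these bins and the lowest in the last. The part of depth in these values was not tested.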

How the results depend on the processing

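The number of domain bins stayed within 1.5 times the 286 under 21 of 25 alternatives, 267 to 301 when 1 library was left out and 256 with TMM-scaled CPM. Which regions were members changed more than their number: with the grid shifted by 50 kb there were 276 bins, which shared 62.6% of the domain sequence. It was 800 in bins of 50 kb, 101 in bins of 200 kb, 1545 at a threshold of 1.5 and 38 at a threshold of 3. For DDT against control in morulae, where 2 bins passed, DESeq2 called 18 bins and 10 domain bins, an unadjusted p under 0.05 gave 775 and 39, and 0 passed in bins of 50 kb, without the 0.1% of windows of highest counts, or with the replicate block. Leaving out 1 library gave 0 to 6 bins with 0 to 0 domain bins, and 0 to 42 windows with 0 to 5 in the domains, the most without DDT morula replicate 1. The replicate block gave 0 windows. Library-size scaling moved unadjusted bins from 350 higher and 425 lower to 234 higher and 606 lower, and all 34 unadjusted domain bins were then higher. The bin chr8:42900001-43000000 had log2 differences of -0.12 to 0.0088 when 1 library was left out, the positive value without DDT morula replicate 3.

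For sperm, where 0 bins passed, DESeq2 called 179 bins and 3 domain bins, and an unadjusted p gave 928 and 20. Leaving out 1 library gave 0 to 1 bins, and 0 to 17 windows with 0 to 8 in the domains, the most without control replicate 3. Without both libraries that stand apart 4175 bins, 28 domain bins, 261890 windows and 1849 domain windows passed, and 6791 and 45 bins by DESeq2, an alternative chosen after seeing the data. For the difference between tissues, DESeq2 called 11 bins, an unadjusted p gave 684 and 7, leaving out 1 library gave 0 to 4 bins and 0 to 1 domain bins, and leaving out both sperm libraries gave 240 and 5. The cause of these changes was not tested.

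The replicate numbers were not seen to pair the samples. Control and DDT libraries of the same number had r across bins of -0.25, 0.13 and -0.24 in morulae and 0.53, 0.81 and -0.63 in sperm. These r are not those of the log levels themselves, which were 0.974 for morula replicate 1 and 0.894 for sperm replicate 3. Not every library had its highest r with its own number. In sperm the sign followed the libraries that stand apart, with 0.90 between control replicate 3 and DDT replicate 4. Pairing could therefore not be judged in sperm. The replicate block, which was fitted without DDT sperm replicate 4, gave 0 bins in sperm and 2 in the difference between tissues, none a domain bin. Leaving out that library without a block gave 1 and 4, also none a domain bin. When 1 library was left out, the median log2 difference between lineages over the domain bins was 0.031 to 0.092 in morulae and 0.020 to 0.062 in sperm, and that of the difference between tissues changed sign, at -0.022 to 0.045. Alternatives for sequence and gene content were not run.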
